A study of Mus musculus with 4 samples.

Results

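The genes described here are 34 genes of protein folding and stress signalling in the endoplasmic reticulum (ER), out of 32285 genes in the deposited count matrices. They were listed by their known function, with earlier results of these data known: chaperones, lectins and disulfide enzymes of the ER, translocon subunits, genes of ER-associated degradation (ERAD), the stress sensors and their transcription factors. Of the 34, 21 were listed as targets of ATF6 or XBP1, 4 as targets of ATF4 (Ddit3, Atf3, Trib3 and Asns), and 9 were left unassigned because they are sensors, or because more than 1 branch or none is a settled regulator. They were read in lymph node cells of wild-type C57BL/6 mice, in 2 control libraries and 2 libraries from mice that had received a total of 100 µg of extracellular vesicles (EVs) from induced pluripotent stem cells (iPSCs) under the skin, 1 droplet 3′ single-cell library per replicate. The sample labels describe the controls as untreated and give a treatment time of 24 h, whereas the series description and the study's methods place the harvest of the draining nodes at 5 days. The study's methods name phosphate-buffered saline as the control injection. The methods call the 2 libraries of a group biological replicates. Age, sex and the number of mice per library are not given in the sources used here.

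Proteins that enter the ER are folded there by chaperones such as BiP (encoded by Hspa5) and GRP94 (Hsp90b1) and are proofread by lectins and disulfide isomerases. When unfolded protein builds up, 3 sensors in the ER membrane start the unfolded protein response: IRE1 (Ern1) splices Xbp1 mRNA, ATF6 is cut free to enter the nucleus, and PERK (Eif2ak3) slows translation and raises ATF4. XBP1 and ATF6 mainly raise folding, translocation and degradation genes, and ATF4 mainly raises amino acid and stress genes such as Asns, Trib3 and Ddit3 (CHOP). Plasma cells, which secrete antibody, depend on XBP1 and carry a large ER. Counts of 3′ ends cannot tell spliced from unspliced Xbp1 mRNA.

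Promoter sequence separated the lists in part, and it is shown for a selection of members. RefSeq windows of 250 bases before to 50 bases after the annotated start (GRCm38.p6) were matched for 28 of the 34 genes, with no entry for Atf6, Derl1, Hspa13, Hyou1, Manf and Sec61a1. The ER stress response element, spelled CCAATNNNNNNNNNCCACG and searched on both strands, was in 10 of these 28 windows, against 37 of 27025 genes (0.137%). Hspa5, Hsp90b1, Calr, Pdia6 and Creld2 held it, as did Canx, Derl3, Dnajc3, Ero1b and Syvn1, whose stretches are not printed here. The shorter ERSE-II, ATTGGNCCACG, was in Dnajb11 and Herpud1, against 12 of 27025 genes (0.0444%). The ATF4 (CARE) letters TGATGNAA were in Asns, Atf3, Trib3 and Herpud1, against 4.51% of all genes, and the XBP1 letters TGACGTGG were in none of the 28, against 0.714%. None of the 4 ATF4 targets held either ER stress element. The longer element was in 8 of 17 windows of ATF6 or XBP1 targets and in 2 of 7 unassigned ones (Canx and Ero1b). ERSE-II was in 2 of 17 and 0 of 7. The lists were made from known targets, so these shares are no independent evidence for them. In the stretches below, read 5′ to 3′ on the strand of the gene, capitals mark the matched letters or their reverse complement. ER stress elements come first, then ERSE-II of Herpud1, then the CARE letters of Herpud1 and Atf3.
Hspa5, chr2:34772010-34772058, plus strand: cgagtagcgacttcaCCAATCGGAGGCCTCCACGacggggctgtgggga
Hsp90b1 first, chr10:86705623-86705671, minus strand: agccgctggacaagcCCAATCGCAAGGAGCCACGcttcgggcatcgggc
Hsp90b1 second, chr10:86705518-86705566, minus strand: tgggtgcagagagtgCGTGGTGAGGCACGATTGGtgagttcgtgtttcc
Calr, chr8:84847060-84847108, minus strand: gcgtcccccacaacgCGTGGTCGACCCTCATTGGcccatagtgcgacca
Pdia6, chr12:17266476-17266524, plus strand: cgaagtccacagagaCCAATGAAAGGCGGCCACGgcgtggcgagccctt
Creld2, chr15:88819505-88819553, plus strand: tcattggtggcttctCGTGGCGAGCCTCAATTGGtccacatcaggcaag
Herpud1 ERSE-II, chr8:94386362-94386402, plus strand: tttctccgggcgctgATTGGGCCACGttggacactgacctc
Herpud1 CARE, chr8:94386302-94386339, plus strand: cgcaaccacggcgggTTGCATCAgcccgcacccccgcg
Atf3 CARE, chr1:191183421-191183458, minus strand: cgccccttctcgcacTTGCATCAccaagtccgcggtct
A match of letters is a description and does not show that a factor binds there.

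The libraries held 50749656 to 70418672 unique molecular identifiers (UMIs), each standing for 1 captured mRNA molecule, and 7974 to 8763 cells per library were kept. Cells were gated by counts: B cells (2493 to 4882 per library), CD4 T cells (943 to 1640), CD8 T cells (1033 to 1881) and Jchain-high cells (10 to 73), which hold 5 or more UMIs of the antibody joining chain. Ms4a1 was detected in 92.4% to 96.2% of B cells, Cd8b1 in 97.7% to 98.8% of CD8 T cells and Cd40lg in 54.0% to 59.4% of CD4 T cells, against at most 1.77% of CD8 T cells for Cd40lg. The EV libraries were deeper per cell in every gate, for example a median of 5821 and 5623.5 UMIs per B cell against 4141.5 and 4903 in controls, a split for which the smallest exact permutation p that 2 against 2 libraries allow is 0.33. Summed CPM of 18 heat shock chaperone genes of the cytosol and mitochondria was also higher in both EV libraries in every gate, and the noncoding RNA Gm42418 was lower, most of all in EV replicate 2 (849 CPM in B cells against 8419 and 9604 in controls). Library pairs shared 11 to 25 cell barcodes. UMIs were summed over the cells of a gate within a library and tested with edgeR's quasi-likelihood test. Levels are CPM (UMIs of a gene per 1e6 UMIs of the sum) after TMM scaling, changes are log2 of EV over control with the standard error (SE) of the fit, and a gene was called at an adjusted p (Benjamini-Hochberg over all genes tested in the gate) below 0.05.

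B cells of EV-treated mice held more mRNA of a set of ER chaperones and folding enzymes. Of 32 members tested, 6 rose (Hsp90b1, Sdf2l1, Creld2, Pdia3, Pdia6 and Xbp1) and 0 fell, where 2.68% of the 13365 genes tested were called in either direction and 1.71% were called higher. Of the 6, 5 are ATF6 or XBP1 targets and Pdia3 is unassigned. The changes were 1.35-fold to 1.81-fold. At an unadjusted p below 0.05, 15 members were higher and 2 lower. DESeq2 called 8 members, all higher, where it called 496 of 13365 genes (314 higher). The levels of 22 of the 32 members did not overlap between groups, of which 18 were higher, where 52.6% of all genes tested did not overlap.

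GRP94 mRNA (Hsp90b1), the ER paralog of HSP90, stood at 179 and 197 CPM in the control B cell sums and at 257 and 282 CPM in the EV sums. Both EV libraries were above both controls, and the log2 change was 0.52 ± 0.10 (SE, n = 2 and 2 libraries; edgeR adjusted p = 0.036). Hspa5, the ER HSP70 chaperone, had a like pattern without a call, at 197 and 212 against 254 and 285 CPM (0.40 ± 0.10, adjusted p = 0.077).

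Sdf2l1, a cofactor of the BiP chaperone system, was at 16.8 and 21.7 CPM in controls and 31.2 and 38.5 CPM after EVs. Its change of 0.85 ± 0.15 (adjusted p = 0.025) was the largest among called members. Creld2, a small ER protein with disulfide isomerase activity, was at 10.7 and 10.4 against 17.6 and 19 CPM (0.79 ± 0.11, adjusted p = 0.014). For Creld2 the groups were far apart relative to the spread of the replicates, whereas the replicates of Sdf2l1 lay further from each other. Derl3, an ERAD channel subunit typical of secretory cells, had the largest fitted value (1.02 ± 0.40) but rested on 8 and 11 UMIs against 39 and 43, and was not called (adjusted p = 0.21).

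The disulfide isomerases Pdia3 and Pdia6 rose by less. Pdia3 (ERp57), which works with the lectins on glycoproteins, was at 111 and 122 against 152 and 168 CPM (0.46 ± 0.09, adjusted p = 0.045). Pdia6 was at 96.9 and 98.9 against 129 and 135 CPM (0.43 ± 0.08, adjusted p = 0.036). Their relative Pdia4 was higher in both EV libraries without a call (0.35 ± 0.10, adjusted p = 0.098), and P4hb, protein disulfide isomerase itself, overlapped between groups (0.04 ± 0.09). The calcium-binding lectin Calr reached 252 and 342 CPM against 174 and 209 (0.63 ± 0.15, adjusted p = 0.071), with the EV libraries far apart from each other.

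Among the regulators, Xbp1 rose from 35.2 and 36.4 to 46.7 and 51.5 CPM (0.45 ± 0.09, adjusted p = 0.041). Atf4 was level at 70.1 and 67.7 against 69.2 and 66.1 CPM (−0.03 ± 0.08, adjusted p = 0.89), which does not bear on its protein, since ATF4 is mainly set at translation. The sensors Atf6 and Eif2ak3 had changes of 0.04 ± 0.08 and 0.06 ± 0.08, and Ern1 of 0.40 ± 0.15 (adjusted p = 0.19). Xbp1 is itself a target of ATF6, and it was the regulator called in B cells.

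ATF4 targets gave no called change in B cells. Ddit3, the CHOP factor, was at 18.98 and 19.05 CPM in controls and 19.7 and 18.6 after EVs (0.01 ± 0.10, adjusted p = 0.98). Atf3 was near 1 CPM in all libraries (0.30 ± 0.40). Trib3, a pseudokinase induced by CHOP, had 4 and 2 UMIs in controls against 11 and 21, and Asns, asparagine synthetase, 3 and 4 against 15 and 9. Both were too low to be tested, and these counts are not scaled for the size of the sums. The B cell sums held 13719683 and 13322526 UMIs in controls against 31970494 and 27150341 in EV libraries.

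Not all ATF6 or XBP1 targets went up. Dnajb9 (ERdj4), an ER J-domain protein often read as an XBP1 target, was lower in both EV libraries, at 71.0 and 66.5 against 61.6 and 47.2 CPM (−0.34 ± 0.13, adjusted p = 0.19). EV replicate 2 was the lower of the pair. Without filterByExpr Dnajb9 was called lower in B cells (−0.30, edgeR adjusted p = 0.037), and without EV replicate 1 its change was −0.54. Herpud1, an ERAD scaffold that responds to several branches, was at 82.8 and 81.1 against 73.5 and 75.4 CPM (−0.14 ± 0.08, adjusted p = 0.36). Syvn1, the ERAD ubiquitin ligase, was also lower without a call (−0.21 ± 0.08, adjusted p = 0.20), whereas its partner Sel1l had a change of 0.26 ± 0.08 (adjusted p = 0.15). Manf, a secreted chaperone cofactor, was at 101 and 107 against 133 and 133 CPM (0.35 ± 0.08, adjusted p = 0.062), and Hspa13, an HSP70 relative of the ER, at 7.38 and 6.55 against 7.99 and 8.12 CPM (0.21 ± 0.15). Among the other members tested in B cells, Canx, Dnajb11, Dnajc3, Edem1, Sec61a1, Sec61b, Hyou1, Ero1b and Derl1, changes ran from −0.07 (Edem1) to 0.34 (Dnajb11), none called. The median was 0.34 over the 21 ATF6 or XBP1 targets, 0.15 over the 2 ATF4 targets tested and 0.06 over the 9 unassigned genes, beside 0.00 over all genes tested. By role, 3 of 10 chaperones and 2 of 7 lectins and disulfide enzymes were called, each group with a median of 0.35, against 0 of 6 ERAD genes with a median of 0.05.

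**Figure D1:**
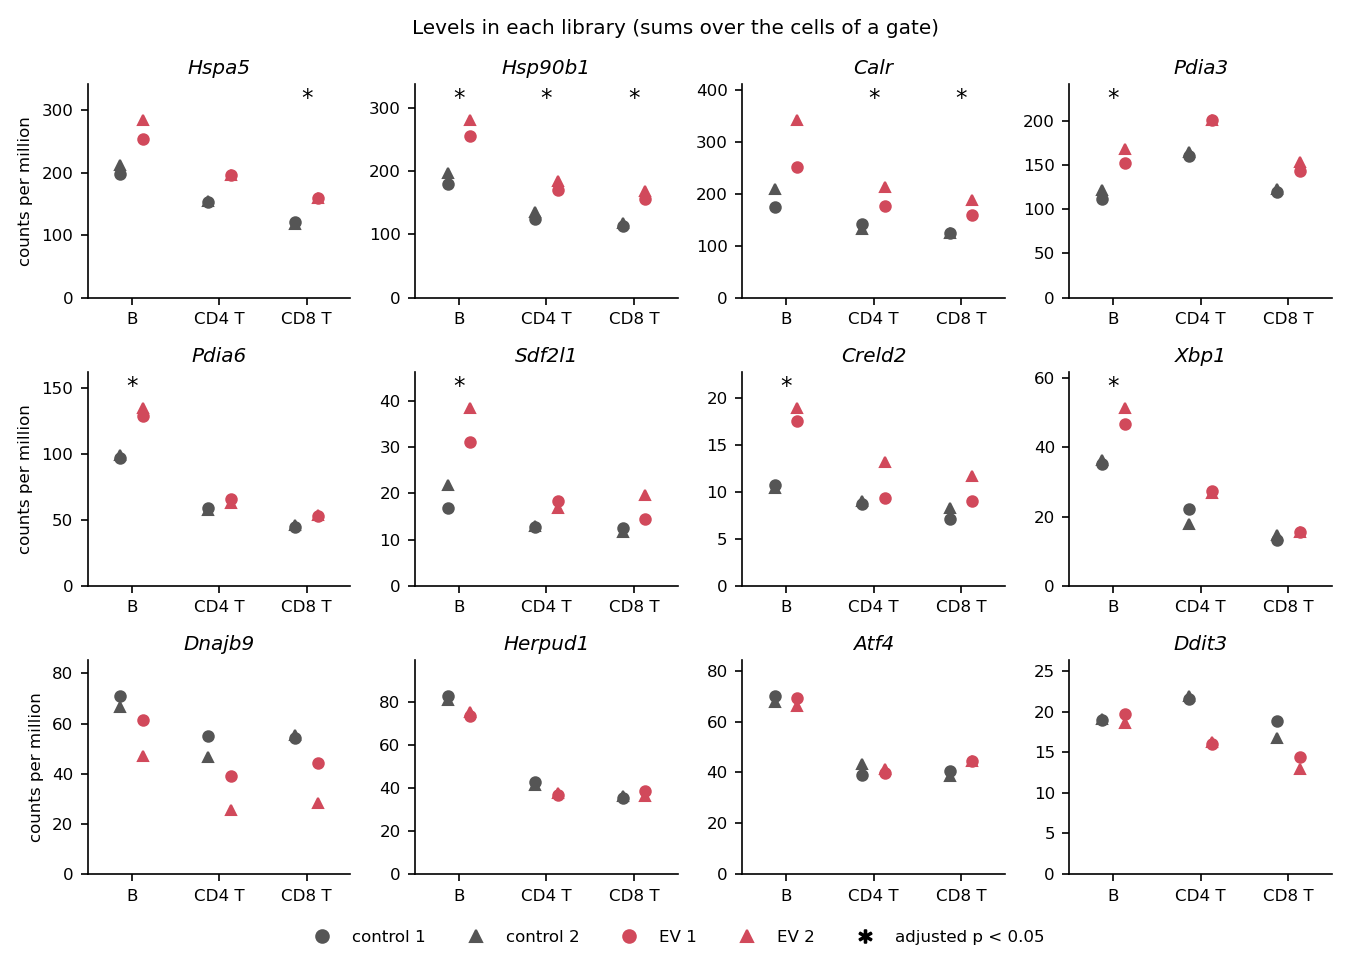
Levels of 12 members in each library, in CPM on linear axes that start at 0, for B, CD4 T and CD8 T cells, with control libraries in grey and EV libraries in red, and an asterisk where the edgeR adjusted p was below 0.05. Hsp90b1 is higher in both EV libraries in each of these gates, for example 257 and 282 against 179 and 197 CPM in B cells, whereas Dnajb9 is lower and Atf4 in B cells overlaps.

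The B cell result rested on both control libraries. Without either control library most of the 6 calls were lost, though not that of Creld2, and without either EV library more members were called. Fewer of all genes tested were called in the former fits and more in the latter. Over these fits log2 changes ran from 0.44 to 0.59 for Hsp90b1, 0.38 to 0.53 for Pdia3 and 0.39 to 0.46 for Pdia6. For Xbp1 they ran from 0.38 to 0.53, for Sdf2l1 from 0.68 to 1.05 and for Creld2 from 0.73 to 0.85. None of the 6 changed sign in any of these fits. Of 6 myeloid markers, 5 or 6 had UMIs in each B cell sum, and their summed CPM was 142 and 79.3 in EV libraries against 40.8 and 39.2, while that of the 8 plasma cell markers was 405 and 381 against 483 and 445. The latter sum followed Irf4, which B cells also express, at 130.0 and 135 against 228 and 182 CPM. Eaf2 was also lower in both EV libraries (23.0 and 21.7 against 27.5 and 25.3 CPM). Sdc1 (4.25 and 4.53 against 4.01 and 2.10 CPM), Tent5c (2.22 and 1.73 against 1.17 and 1.13) and Fkbp11 (9.76 and 7.37 against 7.29 and 6.83) were higher in both. Mzb1, Prdm1 and Tnfrsf17 overlapped between groups. The part of myeloid or plasma-type cells in the result was not tested. Stricter gates dropped cells with UMIs of T cell or myeloid markers, and no plasma cell marker was used to drop cells. In them Hsp90b1, Pdia6, Sdf2l1 and Creld2 were called, and Pdia3 and Xbp1 were not. Without cycling cells (a choice made after seeing the data) 5 members were called, where 356 of 13307 genes were, and Pdia3 was not called. With each cell thinned to 1000 UMIs, Hsp90b1, Pdia3, Pdia6 and Sdf2l1 were still called, and Creld2 (0.50, edgeR adjusted p = 0.26) and Xbp1 (0.26, adjusted p = 0.43) were not. With gates read after thinning, Creld2 was at 0.38 (adjusted p = 0.47), Xbp1 at 0.29 (adjusted p = 0.39) and Sdf2l1 at 0.67 (adjusted p = 0.084).

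In CD4 T cells the chaperone Hsp90b1 and the lectin Calr rose, 2 of 31 members tested, and 0 fell, where 1.36% of the 12225 genes tested were called in either direction and 1.01% were called higher. At an unadjusted p below 0.05, 8 were higher and 2 lower. DESeq2 called 3 members, all higher, where it called 183 of 12225 genes (142 higher). Levels of 21 of the 31 members did not overlap, where 49.4% of all genes did not. Hsp90b1 was at 125 and 136 CPM in controls and 170 and 185 after EVs (0.45 ± 0.09, edgeR adjusted p = 0.048). Calr was at 141 and 132 against 176 and 212 CPM (0.51 ± 0.10, adjusted p = 0.048).

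Several other chaperones of CD4 T cells sat higher in both EV libraries without a call. Hspa5 was at 153 and 154 against 196 and 196 CPM (0.35 ± 0.08, adjusted p = 0.073), Sdf2l1 at 12.6 and 12.8 against 18.4 and 16.9 CPM (0.46 ± 0.13, adjusted p = 0.12) and Creld2 at 8.77 and 8.998 against 9.41 and 13.2 CPM (0.36 ± 0.20). Pdia3 was at 161 and 165 against 201 and 201 CPM (0.30 ± 0.08, adjusted p = 0.11). Pdia6 was at 59.1 and 57.6 against 65.9 and 62.4 CPM (0.14 ± 0.09). Manf overlapped between groups, at 92.9 and 94.4 against 112 and 93.0 CPM, and Hspa13 at 6.31 and 6.38 against 6.47 and 7.57 CPM did not (0.15 ± 0.21).

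On the regulator side of CD4 T cells, Xbp1 was at 22.3 and 18.0 against 27.5 and 26.8 CPM (0.44 ± 0.13, adjusted p = 0.12) and Atf4 at 38.8 and 43.2 against 39.8 and 41.4 CPM (−0.02 ± 0.10). The 3 members with the largest changes in size were Dnajb9, Calr and Sdf2l1. Dnajb9 was at 54.9 and 46.8 CPM in controls and 38.9 and 25.6 after EVs, lower in both EV libraries (−0.67 ± 0.17, adjusted p = 0.094). With replicate number as a block, without filterByExpr and without either EV library it was called lower, with values of −0.38 without EV replicate 2 and −0.98 without EV replicate 1. Ddit3 was lower as well, at 21.5 and 21.9 against 16.0 and 16.3 CPM (−0.43 ± 0.12, adjusted p = 0.11), and Herpud1 was at 42.6 and 41.4 against 36.8 and 37.6 CPM (−0.17 ± 0.10). Trib3 was near 1 to 2 CPM (−0.39 ± 0.44), and Asns (0, 6, 6 and 3 UMIs), Atf3 and Derl3 were too low to be tested. The rest ran from −0.22 (Ero1b) to 0.41 (Atf6), none called.

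In CD8 T cells 3 of 31 members rose, Hspa5, Hsp90b1 and Calr, and 0 fell, where 1.22% of the 12477 genes tested were called in either direction and 0.834% were called higher. At an unadjusted p below 0.05, 8 were higher and 2 lower. DESeq2 called 3 members higher and Dnajb9 lower, where it called 185 of 12477 genes (133 higher). Levels of 23 of the 31 did not overlap, where 50.1% of all genes did not. BiP mRNA (Hspa5) was at 121 and 117 against 159 and 159 CPM (0.42 ± 0.07, edgeR adjusted p = 0.034), with replicates close together. Hsp90b1 was at 114 and 118 against 156 and 169 CPM (0.49 ± 0.08, adjusted p = 0.025), and Calr at 124 and 124 against 158 and 188 CPM (0.48 ± 0.09, adjusted p = 0.042).

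Other chaperones and enzymes of CD8 T cells were not called. Sdf2l1 was at 12.6 and 11.7 against 14.6 and 19.6 CPM (0.50 ± 0.16, adjusted p = 0.14), Creld2 at 7.11 and 8.30 against 9.01 and 11.8 CPM (0.43 ± 0.18) and Pdia3 at 119 and 123 against 144 and 153 CPM (0.29 ± 0.08, adjusted p = 0.098). Pdia6 was at 44.2 and 46.2 against 53.1 and 53.7 CPM (0.24 ± 0.08). Xbp1 differed little, at 13.3 and 14.6 against 15.5 and 15.6 CPM (0.15 ± 0.12), as did Manf at 83.2 and 85.5 against 95.4 and 90.6 CPM (0.14 ± 0.08), Atf4 at 40.8 and 38.8 against 44.5 and 44.3 CPM (0.16 ± 0.08) and Hspa13 at 6.45 and 5.11 against 7.098 and 6.53 CPM (0.24 ± 0.20).

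Dnajb9 had the largest value in size in CD8 T cells, at 54.1 and 55.3 against 44.1 and 28.5 CPM (−0.61 ± 0.16, adjusted p = 0.091). It was called lower by DESeq2 (adjusted p = 0.048), with the block, without filterByExpr, and without control replicate 1, control replicate 2 or EV replicate 1. Its adjusted p over these 6 settings ran from 4.3e-07 to 0.048, and without EV replicate 2, the lower of the EV libraries, it was not called. Ddit3 was at 18.8 and 16.7 against 14.4 and 12.99 CPM (−0.38 ± 0.13, adjusted p = 0.18), again lower in both EV libraries, and Herpud1 was at 35.3 and 36.2 against 38.5 and 36.2 CPM (0.06 ± 0.08). Asns (7, 5, 1 and 1 UMIs), Trib3 (14, 9, 4 and 4) and Derl3 were too low to be tested. All other members of this gate lay between −0.25 (Ern1) and 0.23 (Dnajb11). The median change of the ATF6 or XBP1 targets was 0.15 in CD4 T cells and 0.14 in CD8 T cells. That of the 2 ATF4 targets tested in each gate was −0.41 and −0.30, beside 0.00 over all genes tested in either gate. The pair was Ddit3 and Trib3 in CD4 T cells and Ddit3 and Atf3 in CD8 T cells. Trib3 (19, 18, 10 and 16 UMIs) and Atf3 (1, 20, 9 and 5 UMIs, −0.22 ± 0.85) had few counts, so these medians rest mainly on Ddit3, which was not called.

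The T cell calls changed with thinning and with single libraries left out. Thinning cut the CD8 T cell sums, at 11224567 to 17235890 UMIs, to 1033000 to 1881000. It thus removes counts as well as the depth difference between groups, and cannot tell them apart. With each cell thinned to 1000 UMIs, neither Hsp90b1 nor Calr was called in CD4 T cells, where 1 other member was. In CD8 T cells 0 members were called (4 at an unadjusted p below 0.05). Of all genes, 86 of 8675 and 63 of 8824 were called in these thinned sums. In stricter gates the counts were 0 (8 unadjusted) and 3, where 140 of 11867 and 189 of 12055 genes were called. Both CD4 T cell calls, at an edgeR adjusted p of 0.048 in the main fit, were also lost under the study's cell filter and without cycling cells. There 0 members were called by edgeR (8 unadjusted) in each, where 130 of 11933 and 121 of 12010 genes were. Over all 13 alternatives Hsp90b1 in CD4 T cells ran from 0.35 to 0.51 and Calr from −0.40 to 0.64. In CD8 T cells 3 members were called in each, where 270 of 12284 and 196 of 12349 genes were. Cells with 3 or more cycling markers made up 1.38% and 2.08% of EV and 1.22% and 1.04% of control CD4 T cells, with Mki67 at 32.7 and 57.8 against 22.4 and 26.5 CPM. In CD4 T cells 0 members were called without control replicate 1 or 2. In CD8 T cells none of the 3 higher genes was called without control replicate 1 and Hsp90b1 alone without control replicate 2. Without either EV library more members were called higher in CD4 T cells, as were more of all genes tested. In CD8 T cells Calr was not called without EV replicate 2. Leaving out 1 library at a time, log2 changes in CD4 T cells ran from 0.38 to 0.51 for Hsp90b1 and 0.37 to 0.64 for Calr. In CD8 T cells they ran from 0.40 to 0.44 for Hspa5, 0.43 to 0.55 for Hsp90b1 and 0.35 to 0.60 for Calr. Summed CPM of the 8 B cell markers was 30.7 and 29.6 in EV CD4 T cells against 24.1 and 18.7, and 42.1 and 41.0 against 40.4 and 35.7 in CD8 T cells, and its part in these results was not tested. The same 4 libraries supply every gate, so the gates are not independent.

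**Figure D2:**
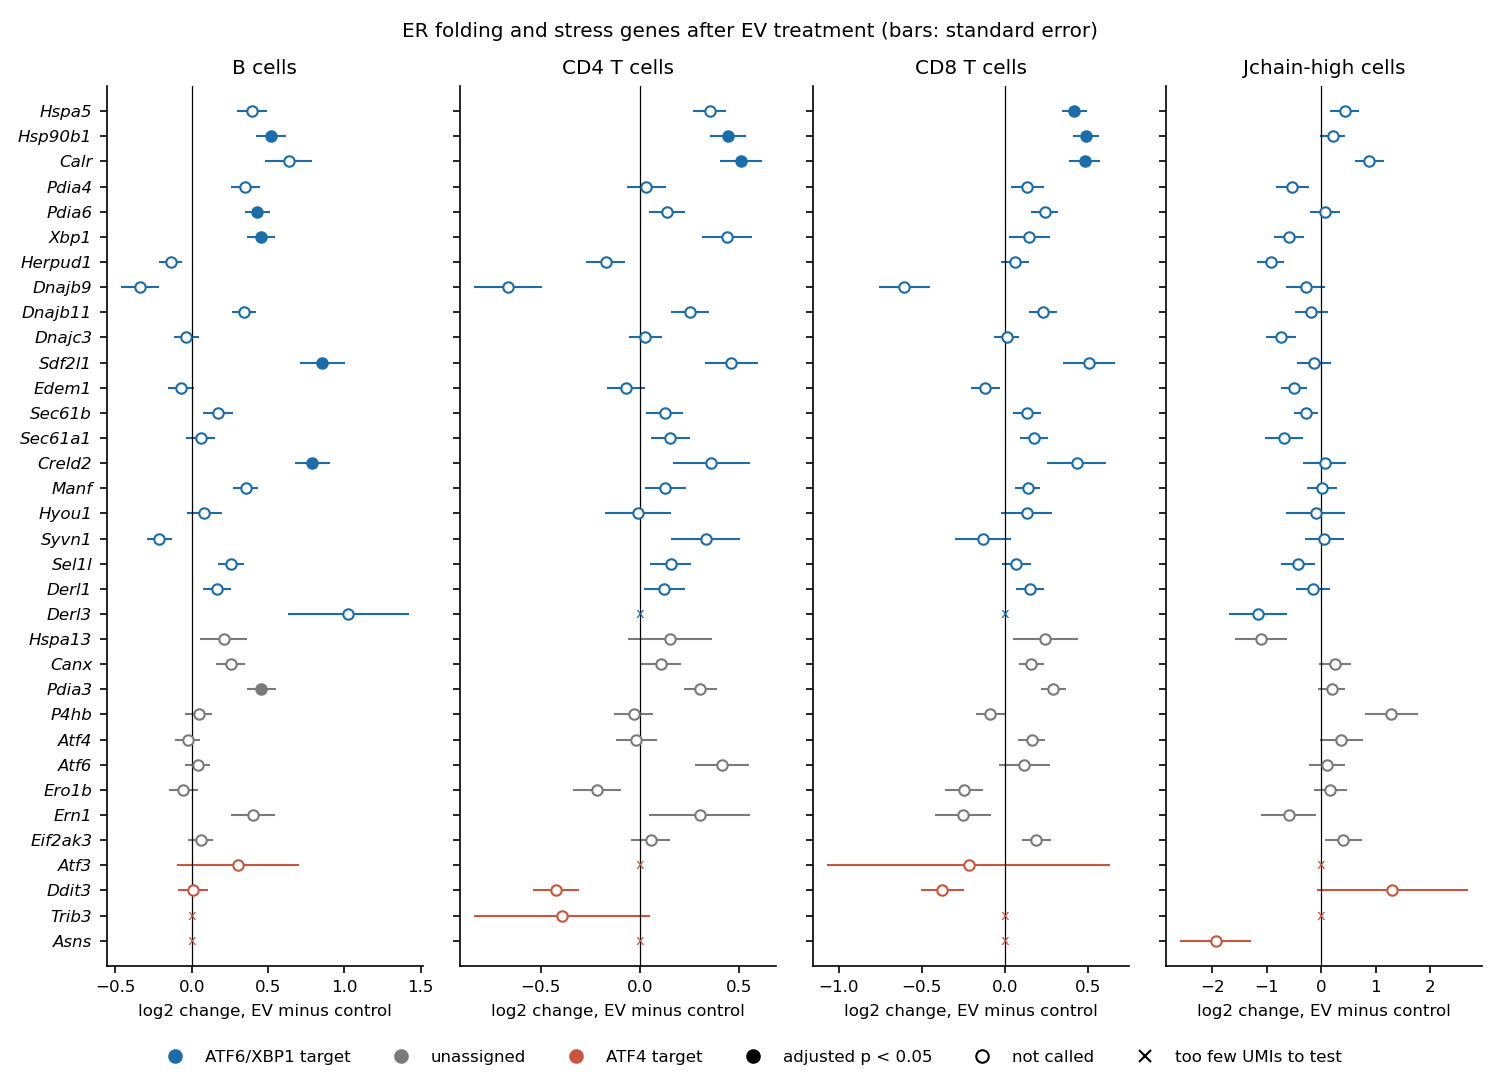
Log2 change of EV over control with its standard error for the 34 members in each gate (each panel has its own axis), blue for ATF6 or XBP1 targets, grey for unassigned genes and red for ATF4 targets, filled where the edgeR adjusted p was below 0.05 and with a cross where counts were too low to test. Filled points are all to the right of 0, with 6 in B, 2 in CD4 T and 3 in CD8 T cells and 0 in Jchain-high cells.

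The difference of the EV effect between gates was tested directly with library as a block. Between B and CD4 T cells 0 of 33 members differed at an adjusted p below 0.05 (edgeR interaction), where 1.70% of 13684 genes did. At an unadjusted p below 0.05 these counts were 8 members and 1632 genes. Between CD8 and CD4 T cells 0 of 32 members differed, where 0.315% of 13003 genes did. At an unadjusted p below 0.05 these counts were 3 members and 969 genes. Leading values were those of Syvn1, which was lower in EV B cells and higher in EV CD4 T cells (a difference of −0.56 ± 0.15, adjusted p = 0.11), and of Pdia6 (0.28 ± 0.08 more in B cells, adjusted p = 0.18). These tests do not show that the gates responded alike.

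The wider lists put the members in context. Of 40 other secretory genes listed as ATF6 or XBP1 targets, 0 were called in B (37 tested), CD4 (36) or CD8 T cells (36), with medians of 0.04, 0.04 and 0.06 (edgeR; 5, 7 and 10 had an unadjusted p below 0.05, and DESeq2 called 0). The smallest adjusted p in B cells belonged to Erp44 (0.32 ± 0.08, adjusted p = 0.078), a thiol-based retention factor, Derl2, Ddost and Srprb. In CD4 T cells Sec11c, Ssr2, Derl2 and Erp44 led, and in CD8 T cells Ssr2, Dnajc10, Spcs3 and Srprb, of which Dnajc10 and Spcs3 were lower. Of 33 other ATF4 genes 0 were called in any gate, with medians of 0.15, −0.03 and 0.07 in B, CD4 and CD8 T cells (6, 5 and 6 had an unadjusted p below 0.05, and DESeq2 called Ddit4 higher in B cells). Their leading genes were Ddit4, Pck2, Cebpb and Slc38a2 in B cells, Slc38a2, Ppp1r15a, Psat1 and Ddit4 in CD4 T cells, and Ppp1r15a, Psph, Ddit4 and Nars in CD8 T cells. Slc38a2, an amino acid transporter, was lower in EV B cells (−0.30 ± 0.09) and Ppp1r15a, which reverses the PERK signal, in EV T cells (−0.64 ± 0.16 in CD4, −0.54 ± 0.16 in CD8), each uncalled.

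Heat shock chaperones of the cytosol and mitochondria had larger median changes than the ER members. In B cells 13 of 17 tested rose, in CD4 T cells 12 of 16 and in CD8 T cells 13 of 16, with 0 called lower and medians of 0.75, 0.73 and 0.71. Bag3, a cochaperone at low counts, was lower in both EV libraries in CD4 (−0.19 ± 0.24) and CD8 T cells (−0.41 ± 0.30), uncalled, and Hspa4 overlapped between groups in CD4 T cells. Hspa8, the constitutive cytosolic HSP70, was at 416 and 459 CPM in control B cells and 1005 and 1083 after EVs (1.25 ± 0.11, edgeR adjusted p = 0.0037), and Hsph1, Dnaja1 and Fkbp4 followed. Hsph1, a nucleotide exchange factor for HSP70, led in both T cell gates, with 1.31 ± 0.11 in CD4 (adjusted p = 0.0030) and 1.27 ± 0.09 in CD8 T cells (adjusted p = 0.0010). Dnaja1, Chordc1 and Hspa8 came next in CD4, and Stip1, Hsp90aa1 and Cacybp in CD8 T cells. Summed CPM of this list was 1.69, 1.69 and 1.61 times as high in EV as in control libraries in B, CD4 and CD8 T cells. Summed CPM of 7 genes that respond to tissue dissociation was 0.965, 0.931 and 0.971 times that in controls. The ER members that rose thus moved in the same libraries as this larger chaperone change, whose part in their rise was not tested.

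Among all 49 genes with either ER stress element in the RefSeq windows, those called between EV and control were members. In B cells 3 of the 12 members tested with an element were called, with a median of 0.37, and 0 of the 13 other genes, with a median of −0.03. In CD4 T cells these counts were 2 of 11 and 0 of 15, with medians of 0.25 and −0.05, and in CD8 T cells 3 of 11 and 0 of 16, with medians of 0.23 and 0.04. Sdf2l1, Pdia3 and Xbp1 were called in B cells without these letters in their windows. Of the 12 members with an element tested in B cells, 8 had positive changes. Syvn1 (−0.21), Herpud1 (−0.14), Ero1b (−0.06) and Dnajc3 (−0.04) were negative, none called.

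The Jchain-high gate differed in kind between groups, which has to be stated before its values. It held 10 and 18 cells in controls and 62 and 73 after EVs (0.122% and 0.226% against 0.740% and 0.833% of kept cells; exact permutation p = 0.33, the smallest possible). Only 5 and 5 control cells and 4 and 9 EV cells had at least 10% of their UMIs in immunoglobulin genes, and the remaining 5 and 13 against 58 and 64 cells had medians of 0.853% to 1.12%. Of the latter, 52 and 57 EV cells held 3 or more of 6 cycling markers, against 2 and 5 control cells. Of the same cells, 45 of 58 and 57 of 64 EV cells held 3 or more of 5 germinal centre B cell markers. So did 4 of 5 and 9 of 13 control cells, and this share overlapped between groups. Median depth was 8651.5 and 11223.5 UMIs per Jchain-high cell in controls and 26874 and 23174 after EVs. Above 20000 UMIs, the upper limit of the study's cell filter, lay 20% and 16.7% of control and 59.7% and 63.0% of EV cells of the gate. Sdc1, which defines plasma cells, was detected in 20%, 11.1%, 9.68% and 9.59% of the gate. The gate is therefore called Jchain-high and not plasma cell, and depth enters its definition, since a deeper cell passes 5 UMIs more easily.

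**Figure D3:**
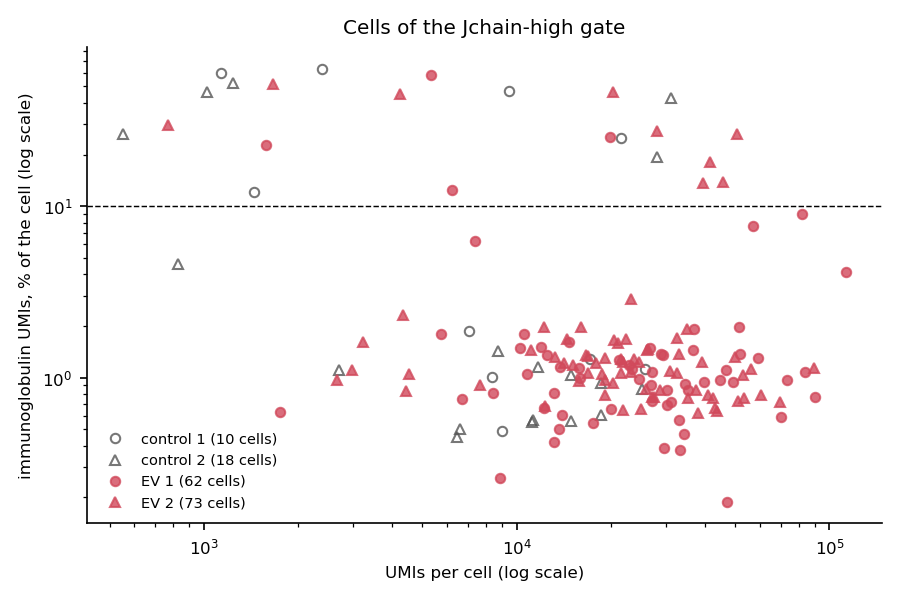
Each point is a cell of the Jchain-high gate, with its total UMIs on the horizontal axis and the percent of them in immunoglobulin genes on the vertical axis (both log scales), open grey for control and filled red for EV libraries, and the dashed line at 10%. Above the line lie 5 of 10 and 5 of 18 control cells but 4 of 62 and 9 of 73 EV cells, and most other EV cells sit to the lower right, at high UMIs.

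In this gate no member was called between EV and control sums (0 of 32 tested; 7 with an unadjusted p below 0.05, of which 5 were lower; 0 called by DESeq2, which left 12 without an adjusted p), where 0.408% of 8085 genes were called. Levels of 10 of the 32 did not overlap, where 44.2% of all genes did not. Hsp90b1 was at 1450.2 and 1091 against 1602 and 1309 CPM and Hspa5 at 649 and 415 against 795 and 602 CPM, overlapping in each case. Calr, at 477 and 286 against 711 and 647 CPM, was higher in both EV libraries (0.88 ± 0.26, edgeR adjusted p = 0.18), as was P4hb on 1 and 9 control UMIs (1.28 ± 0.49).

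Among members lower in both EV libraries, Herpud1 was at 365 and 286 against 170 and 166 CPM (−0.93 ± 0.25, adjusted p = 0.13), Hspa13 at 50.7 and 44.4 against 21.7 and 21.3 CPM (−1.11 ± 0.47) and Asns at 50.7 and 24.7 against 9.55 and 7.93 CPM (−1.94 ± 0.65, adjusted p = 0.27), the last on 5 UMIs in each control. Xbp1 was at 274 and 568 against 309 and 275 CPM (−0.60 ± 0.28). Sdf2l1 at 243 and 133 against 178 and 143, Creld2 at 243 and 93.8 against 197 and 117, Manf at 649 and 409.9 against 617 and 423, Dnajb9 at 60.8 and 98.8 against 76.4 and 63.4 and Atf4 at 101 and 44.4 against 88.0 and 78.3 CPM overlapped between groups. Pdia3, at 355 and 301 against 407 and 332 CPM, and Pdia6, at 395 and 237 against 357 and 279.5 CPM, overlapped too. Ddit3 rested on 1 and 0 UMIs in controls against 12 and 21 (1.30 ± 1.38). In CPM it was at 10.1 and 0 against 6.36 and 10.4 and overlapped between groups. Atf3 and Trib3 were too low to be tested. The rest ran from −1.16 (Derl3) to 0.40 (Eif2ak3).

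The direction of the gate turned with the cells taken. Over the 21 ATF6 or XBP1 targets the median change was −0.19 in the gate as defined, beside 0.04 over all genes there. It was −1.34 in cells with 20 or more Jchain UMIs. There 14 of 31 members were called lower, and 457 of 6695 genes were called in either direction. In cells under 10% immunoglobulin UMIs, a choice made after seeing the data, it was 1.178. In those cells 0 of 29 members and 0 of 7895 genes were called, with 13 members at an unadjusted p below 0.05. From 20 Jchain UMIs, 4 and 4 control cells were left, all with at least 10% immunoglobulin UMIs, against 28 and 34 EV cells, of which 3 and 8 had that share. Under 10%, EV replicate 1 stood apart, with Hspa5 at 785 and Hsp90b1 at 1549.6 CPM (per sum, without TMM scaling) against 261 and 165 in EV replicate 2. Of its 6 cells with 100 or more Jchain UMIs, 4 were under 10%, against 0 of 7 in EV replicate 2 and 0 of 3 and 0 of 2 in controls, so the value of 1.178 includes a few such cells of 1 library. A sum over such a gate cannot tell a change in its mix of cells from a change within a cell. Among the wider secretory list, Ssr4 (−1.65 ± 0.22, adjusted p = 0.0053) and Sec11c (−1.28 ± 0.22, adjusted p = 0.019), parts of the translocon and of the signal peptidase, fell in EV sums of the gate, followed by Fkbp2 and Fkbp11 without a call by edgeR. Of the 37 tested, 12 had an unadjusted p below 0.05, all lower, and DESeq2 called 4 lower (Ssr4, Sec11c, Fkbp2 and Mzb1) and left 18 without an adjusted p. By edgeR 0 of 24 ATF4 genes tested were called (2 at an unadjusted p below 0.05, 0 by DESeq2, which left 22 without an adjusted p), led by Mars, Slc38a2, Eprs and Psat1. The mitochondrial Hspd1 and the cytosolic Dnaja1, Hspa8 and Hsp90aa1 rose, 4 of 14 tested, with a median of 1.16.

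Read by Jchain content, the cells show where the ER genes are high. In cells with 100 or more Jchain UMIs (3 and 2 in controls, 6 and 7 after EVs), CPM of Hspa5, here without TMM scaling, was 1585 and 995 against 3265 and 3325, and of Hsp90b1 3797 and 3388 against 7564 and 10194. These CPM count immunoglobulin UMIs, which lower the values of other genes. Their share per cell was 19.5% to 63.3% in controls and 0.967% to 58.1% after EVs. In cells of 5 to 19 Jchain UMIs Hspa5 was at 145 and 164 against 230.5 and 223 and Hsp90b1 at 204 and 98.4 against 243 and 136, on 6 and 14 against 34 and 39 cells. So few cells carry no test, and the former group has under 5 cells in each control.

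**Figure D4:**
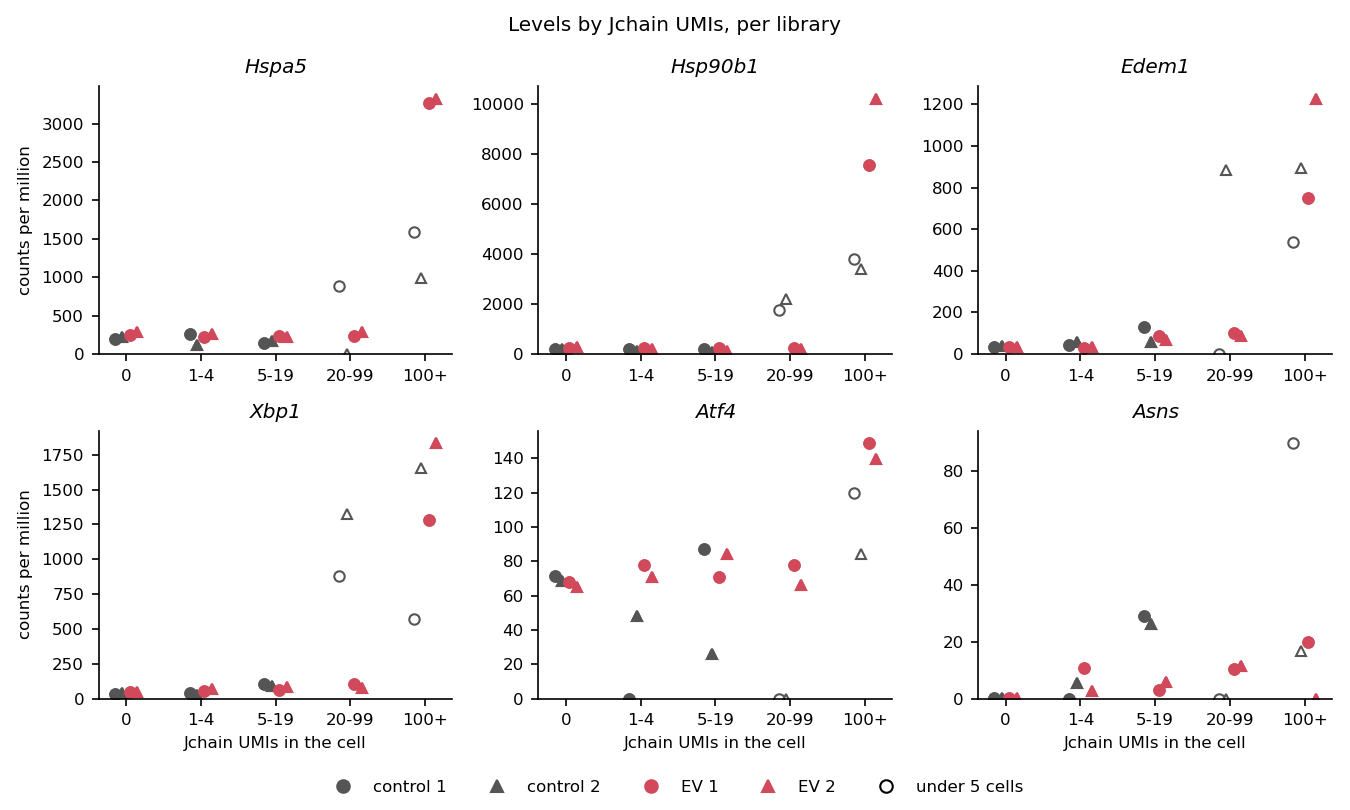
CPM of 6 members (vertical axes, linear from 0, immunoglobulin UMIs included in the total) in B-lineage cells grouped by their Jchain UMIs (horizontal axis), per library, open where the group held under 5 cells. Hspa5 and Hsp90b1 are highest at 100 or more Jchain UMIs in the EV libraries, for example Hspa5 at 3265 and 3325 CPM, while Edem1 and Xbp1 overlap between groups there, and EV cells with 20 to 99 UMIs lie near the B cell level for Hspa5, at 237 and 287 CPM.

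Set against B cells of the same libraries, Jchain-high cells held more of nearly every member. With library as a block, 28 of 32 members tested were higher and 2 lower (edgeR), where 26.3% of 12286 genes were called higher. All 21 ATF6 or XBP1 targets were among the 28, with a median log2 difference of 1.54 beside −0.09 over all genes. Cells were selected here by Jchain, a secretory cell gene, and they were deeper, so the direction is tied to how the gate was drawn. Most EV cells of the gate held 3 or more germinal centre markers, as given above.

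Of the chaperones, Hsp90b1 was higher by 2.70 ± 0.13 (adjusted p = 2.6e-16) and Hspa5 by 1.48 ± 0.14 (adjusted p = 6.4e-10), the latter near the member median of 1.46, with Hsp90b1 at 1089.7 to 1729 CPM in Jchain-high and 170 to 269 CPM in B cell sums. Creld2 (3.42 ± 0.21), Sdf2l1 (2.63 ± 0.20), Manf (2.22 ± 0.14) and Hspa13 (1.89 ± 0.28) were higher too, while Dnajb9 differed less (0.51 ± 0.16, adjusted p = 0.011). Of the ERAD genes, Derl3 had the largest difference (5.28 ± 0.44, from 0.544 to 1.53 CPM in B cells to 29.6 to 140.3 CPM) and Edem1, a mannosidase-like selector of misfolded glycoproteins, was at 2.93 ± 0.15. Xbp1, which plasma cells require, was higher by 3.09 ± 0.18. Sec61b, a translocon subunit, was higher by 2.08 ± 0.13.

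The 2 ATF4 targets tested did not move as one. Ddit3 was lower (−1.11 ± 0.32, edgeR adjusted p = 0.0045), and Asns was higher (5.46 ± 0.59), on 5 to 18 UMIs per library in Jchain-high cells. Among unassigned genes, the oxidase Ero1b was lower (−0.51 ± 0.15, adjusted p = 0.0054). Atf4 (0.37 ± 0.17, adjusted p = 0.069) and Atf6 (0.35 ± 0.16, adjusted p = 0.061) were not called. Of the wider lists, 28 of 37 secretory genes and 15 of 27 ATF4 genes were higher, with 0 and 4 lower.

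In Jchain-high cells under 10% immunoglobulin UMIs, 17 members were higher and 2 lower than in B cells, where 3020 of 12168 genes were higher. The median over all members was 0.62 instead of 1.46. Hspa5 (0.45 ± 0.23, adjusted p = 0.11), Hsp90b1 (0.44 ± 0.35, adjusted p = 0.30), Pdia4 (−0.17 ± 0.37) and Dnajb9 were not called there, whereas Creld2 (2.17 ± 0.35), Edem1 (1.84 ± 0.23), Sdf2l1 (1.71 ± 0.25) and Xbp1 (1.58 ± 0.25) still were. Without EV replicate 1 the count of higher members in the whole gate was 24, where 1765 of 11977 genes were higher. With DESeq2 it was 25, where 2240 of 12286 genes were. From 20 Jchain UMIs it was also 25, where 2385 of 12122 genes were.

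**Figure D5:**
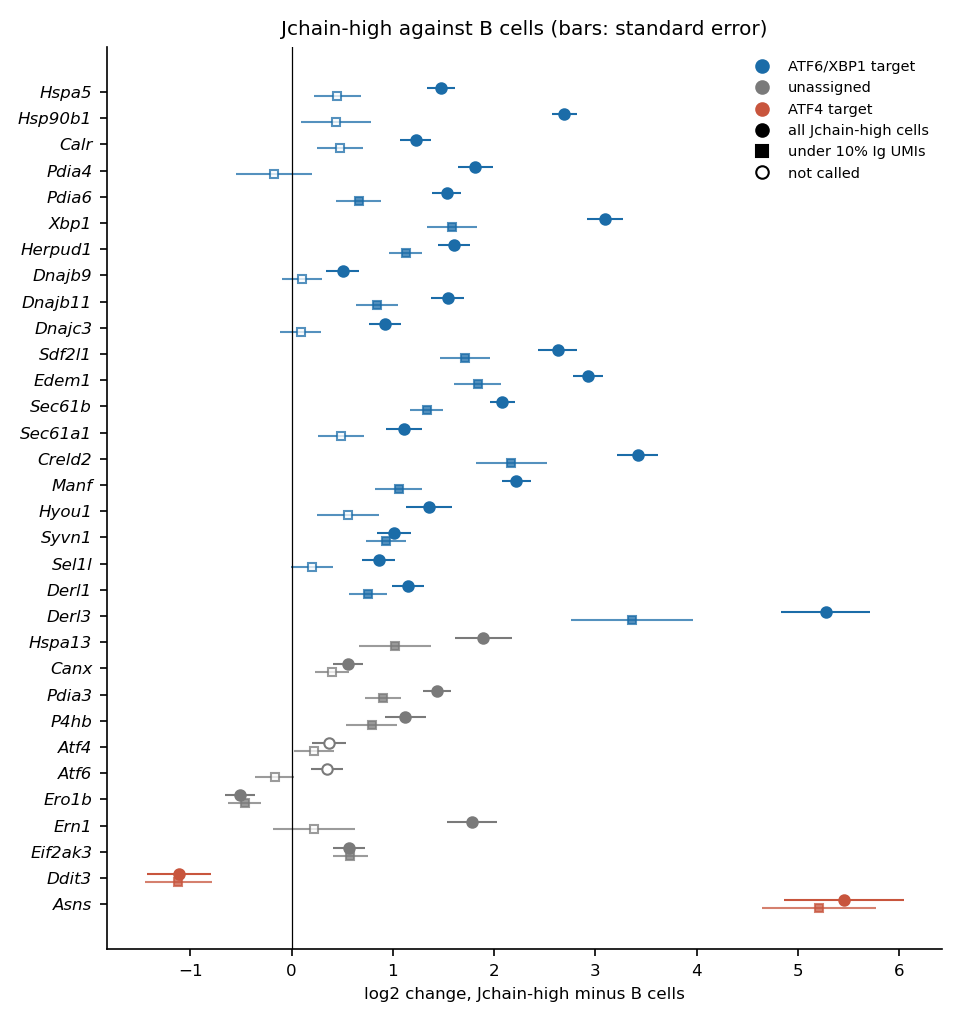
Log2 difference of Jchain-high over B cells with its standard error for 32 members, as circles for all Jchain-high cells and squares for those under 10% immunoglobulin UMIs, coloured by branch and filled where the edgeR adjusted p was below 0.05. All 21 blue circles are filled and right of 0 (median 1.54), and the squares of Hspa5 and Hsp90b1 are open, at 0.45 and 0.44.

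By the interaction test the EV effect was called different between Jchain-high and B cells for 1 member, Xbp1 (−0.93 ± 0.22, edgeR adjusted p = 0.0063). Of 12286 genes 1.75% were called. An unadjusted p below 0.05 was held by 11 of 32 members and by 1189 of the 12286 genes. The fit used 1 spread per gene for both gates. Its SE for Xbp1 is below that of the Jchain-high change alone (−0.60 ± 0.28), and it was not refitted with single libraries left out. Xbp1 was higher in both EV libraries in B cells, and in Jchain-high cells control replicate 2, at 568 CPM, was above both EV libraries. The shift in the mix of Jchain-high cells given above applies to this value and cannot be told apart from it.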

How the data were processed

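The authors deposited 1 matrix of raw UMI counts per library (genes by cell barcodes), made with Cell Ranger 7.1.0 on mm10 per the submitters' processing notes. The annotation release is not given in the sources used here. Matrices held 8297 to 9000 barcodes per library, as filtered by the authors' caller. From these counts, cells with at least 200 genes and under 10% mitochondrial UMIs were kept. Gates were B (Cd79a of 1 or more, no Cd3e, Jchain under 5), Jchain-high (Jchain of 5 or more, no Cd3e), CD4 T (Cd3e and Cd4, no Cd8a or Cd79a) and CD8 T (Cd3e and Cd8a, no Cd4 or Cd79a). No doublet caller was run, and stricter gates stood in for one. The study's own test compares cells. Here counts were summed per gate and library and tested with edgeR 4.0.16 in R 4.3.3 (filterByExpr, TMM, glmQLFit, glmQLFTest, two-sided). The SE is the log2 change divided by the root of F. DESeq2 1.42.0 was an alternative. Python 3.11.15 with scipy 1.17.1 served for gating and exact permutation tests. The fits were tested on simulated data.

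Members, gene lists and tests were chosen with earlier results of these data known. Values in every library are given for members called in any gate, for 13 key members and for the 3 with the largest change per gate, and others as ranges, and up to 4 genes per wider list and gate are named by adjusted p. Ero1b is listed in the files under its older symbol Ero1lb. Ddit3 has a second, overlapping identifier that held 0 UMIs. Replicate numbers did not pair the libraries. Libraries held 50749656 to 70418672 UMIs, and low counts limit the precision. Alternatives were other library sizes, no filter on low counts, the replicate block, leaving out each library, thinned cells, stricter gates and the study's cell filter. One marker gene is not reported here.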

Additional observations from a re-analysis of the deposited data

Results flagged for a closer look

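Xbp1 was the only one of the 32 members called in the interaction test between Jchain-high and B cells, at −0.93 on the log2 scale (SE 0.22, edgeR adjusted p = 0.0063). Without the filter on low counts it was −0.92 (edgeR adjusted p = 0.013). The fit used 1 spread for both gates, as given above. The Jchain-high sums of Xbp1 rest on 27 and 115 UMIs in controls.

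In some members both EV libraries were above both controls in one gate and below them in another, and the difference was not tested for these gate pairs. In each gate 44.2% to 52.6% of all genes tested did not overlap, and how many of them had opposite directions was not counted. The Jchain-high values also carry the shift in the mix of cells of that gate. Hspa13, with −1.11 in Jchain-high cells, differed by −1.26 from CD4 and by −1.35 from CD8 T cells. Herpud1 differed by −0.20 between B and CD8 T cells and by −0.99 between Jchain-high and CD8 T cells. In CD8 T cells Herpud1 was nearly level in EV replicate 2 (36.235 CPM) and control replicate 2 (36.226 CPM). Sec61b in Jchain-high cells differed by −0.41 from CD4 and −0.41 from CD8 T cells, Sec61a1 by −0.84 and −0.86, and Sel1l by −0.58 from CD4 T cells. Ern1, which encodes the sensor IRE1, differed by 0.65 between B cells (0.40) and CD8 T cells (−0.25). Groups of 2 libraries were too small to look for single samples far from the others.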

How the results depend on the processing

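Without filterByExpr, 12 members were called in B, 1 in Jchain-high, 7 in CD4 and 6 in CD8 T cells. Of all genes, 1478 of 21712, 204 of 14888, 919 of 20229 and 914 of 20401 were called in these gates. Between B and CD4 T cells 2 members differed (Atf6 and Pdia6), where 620 of 22954 genes did. The ATF4-target medians were 0.52 (B), 1.91 (Jchain-high) and −0.80 (CD8), on genes with few UMIs. The replicate block gave 11, 6 and 6 called members in B, CD4 and CD8 T cells and 0 in Jchain-high cells. Of all genes tested, 933, 745, 803 and 15 were called in these gates. Samples with the same number had correlations of 0.013, 0.0014, −0.040 and 0.062 in B, Jchain-high, CD4 and CD8 T cells, so they share only a number. With cells thinned to 1000 UMIs, 1 and 0 members were called in CD4 and CD8 T cells, and the 1 was neither Hsp90b1 nor Calr. The ATF6/XBP1 medians were 0.13 and 0.10. With gates read after thinning, only 8, 14 and 3 members could be tested in CD4 T, CD8 T and Jchain-high cells, and 0 were called. The ATF6/XBP1 medians of 0.24, 0.092 and 0.46 in these gates thus cover fewer genes than in the main fit. In this setting Calr in CD4 (−0.40) and Hspa5 in CD8 T cells (−0.15) changed sign, on 117 to 280 T cells per gate and library. Strict gates gave 0 called members in CD4 T cells and ATF6/XBP1 medians of 0.13 (CD4), 0.11 (CD8) and −0.69 (Jchain-high), with −1.59 for ATF4 targets in the last. The study's cell filter gave 0 called in CD4 T cells and an ATF4-target median of −0.022 in B cells. It left 8 and 15 control and 25 and 27 EV cells in the Jchain-high gate, where 0 of 23 members and 0 of 3361 genes were called. Without cycling cells, an alternative added after seeing the data, 0 were called in CD4 T cells and the ATF6/XBP1 medians were 0.13 and 0.16 in CD4 and CD8 T cells. From 20 Jchain UMIs, 14 members were called in the Jchain-high gate, where 457 of 6695 genes were called, with medians of −1.34 and −2.20 for the 2 branches. Under 10% immunoglobulin UMIs (also added) the ATF6/XBP1 median was 1.178, and 19 members differed from B cells, where 6095 of 12168 genes did.

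Leaving out 1 library at a time gave 1 to 16 called members in B, 0 to 11 in CD4, 1 to 6 in CD8 T and 0 to 1 in Jchain-high cells, and 25 to 32 for Jchain-high against B cells. ATF6/XBP1 medians then ran from 0.26 to 0.37, 0.12 to 0.20, 0.15 to 0.16 and −0.41 to 0.087 in B, CD4, CD8 T and Jchain-high cells, and ATF4-target medians from 0.033 to 0.52, −0.51 to −0.41, −0.86 to −0.30 and −2.19 to 2.54. Calls over all genes tested moved too. In B and CD4 T cells they fell without either control library and rose without either EV library. The ranges of called members thus do not by themselves set the members apart from other genes. The causes were not tested. Of the 143 values of members called in B, CD4 or CD8 T cells under alternatives, 2 changed sign, both named above, and 42 lost the call without changing sign. Dnajb9 was called lower in B, CD4 T and CD8 T cells without filterByExpr, and in CD4 and CD8 T cells under the block. Depth limits Trib3, Asns, Atf3 and Derl3, and the few Jchain-high cells limit that gate.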
